A study of Saccharomyces cerevisiae with 36 samples.

Results

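The genes described here are the 40 nuclear genes of Saccharomyces cerevisiae that encode subunits of the mitochondrial respiratory chain, its electron carrier cytochrome c and the ATP synthase. They were chosen by name, from the protein complex each product belongs to, and all 40 were found among the 6403 genes of the read count table and the 6172 genes of the authors' normalised table. They comprise 13 genes of the ATP synthase, 9 of cytochrome c oxidase, 9 of the cytochrome bc1 complex, 4 of succinate dehydrogenase, 2 of cytochrome c and 3 of the NADH dehydrogenases. All 40 passed the filter on low counts (a counts-per-million value, CPM, above 1 in at least 3 samples), which kept 5867 genes.

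RNA was sequenced from cultures of BY4741, a haploid laboratory strain that carries his3Δ1, leu2Δ0, met15Δ0 and ura3Δ0, and from mip6d, the same background with the gene of the RNA-binding protein Mip6 replaced (mip6::KANMX4). Cultures grown in the rich glucose medium YPD at 30°C were either heated for the first time when the samples were taken (no-memory) or had first received a heat shock of 20 min at 39°C and 60 min of recovery at 30°C (memory). Both were then brought to 39°C by adding medium at 51°C, and samples were taken at 0, 15 and 20 min, which gives 12 groups of 3 biological replicates. The memory culture at 0 min had therefore already been heated and had recovered. MIP6 was not analysed here, so the deletion was not checked in the counts.

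Each of the 36 samples held between 28270651 and 42233578 counts, of which the 40 genes took 0.362 to 0.676%, and the lowest count of any of these genes in a sample was 29. Levels are given as CPM after TMM scaling, a method that sets the bulk of genes equal between samples, and as CPM per kilobase of coding length where genes are compared. Differences are log2 fold changes with their standard error from edgeR's quasi-likelihood test, with Benjamini-Hochberg adjustment over all 5867 genes, and a gene was called at an adjusted p under 0.05. The mip6d memory 0 min replicate 2 sample carries 2 time labels that disagree. Its title says 0 min and another label says 20 min, and its mean correlation was 0.964 with the other 0 min samples and -0.188 with the 20 min samples.

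In yeast mitochondria, electrons enter the chain from NADH through single-polypeptide dehydrogenases (Ndi1 facing the matrix, Nde1 and Nde2 facing the intermembrane space) rather than through a multi-subunit complex I, or from succinate through succinate dehydrogenase. Ubiquinone carries them to the bc1 complex, cytochrome c carries them on to cytochrome c oxidase, and the ATP synthase uses the resulting proton gradient. In glucose medium most ATP comes from fermentation, and many of these nuclear genes are repressed by glucose and activated by the HAP complex, of which Hap4 is the activating subunit and CCAAT the recognised sequence. Several subunits exist as a pair of isoforms from separate genes, of which Cox5b and Cyc7 are known as the hypoxic forms.

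The levels of the 40 genes differed widely before heating. In WT no-memory samples at 0 min, the highest group means on the CPM per kilobase scale were those of ATP2 (660), COX9 (405), ATP15 (396) and ATP1 (310), which encode ATP synthase subunits except for COX9. The lowest were those of NDE2 (1.495), CYC7 (17.9), SDH1 (61.3) and ATP20 (73.0). The samples of ATP1 and ATP2, whose products occur in equal numbers in the enzyme, did not overlap, while COX9 and ATP15 differed by less than their spread (SD of 54.5 and 55.0, n = 3).

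The first question was how the 40 genes changed during a first heat shock. In WT no-memory cells at 15 min against 0 min, 31 of the 40 genes rose, 3 fell and 6 were not called, against a background over all genes of 36.6% higher and 36.6% lower. The median log2 fold change was 0.55 over the 40 genes and 0.01 over all 5867 genes. All 9 bc1 genes and all 4 succinate dehydrogenase genes rose, as did 9 of 13 ATP synthase genes and 6 of 9 cytochrome c oxidase genes. The 3 genes that fell were CYC1, NDE1 and ATP5. RNA was extracted from whole cultures, in which fewer cells of a type and less RNA per cell cannot be told apart.

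**Figure D1:**
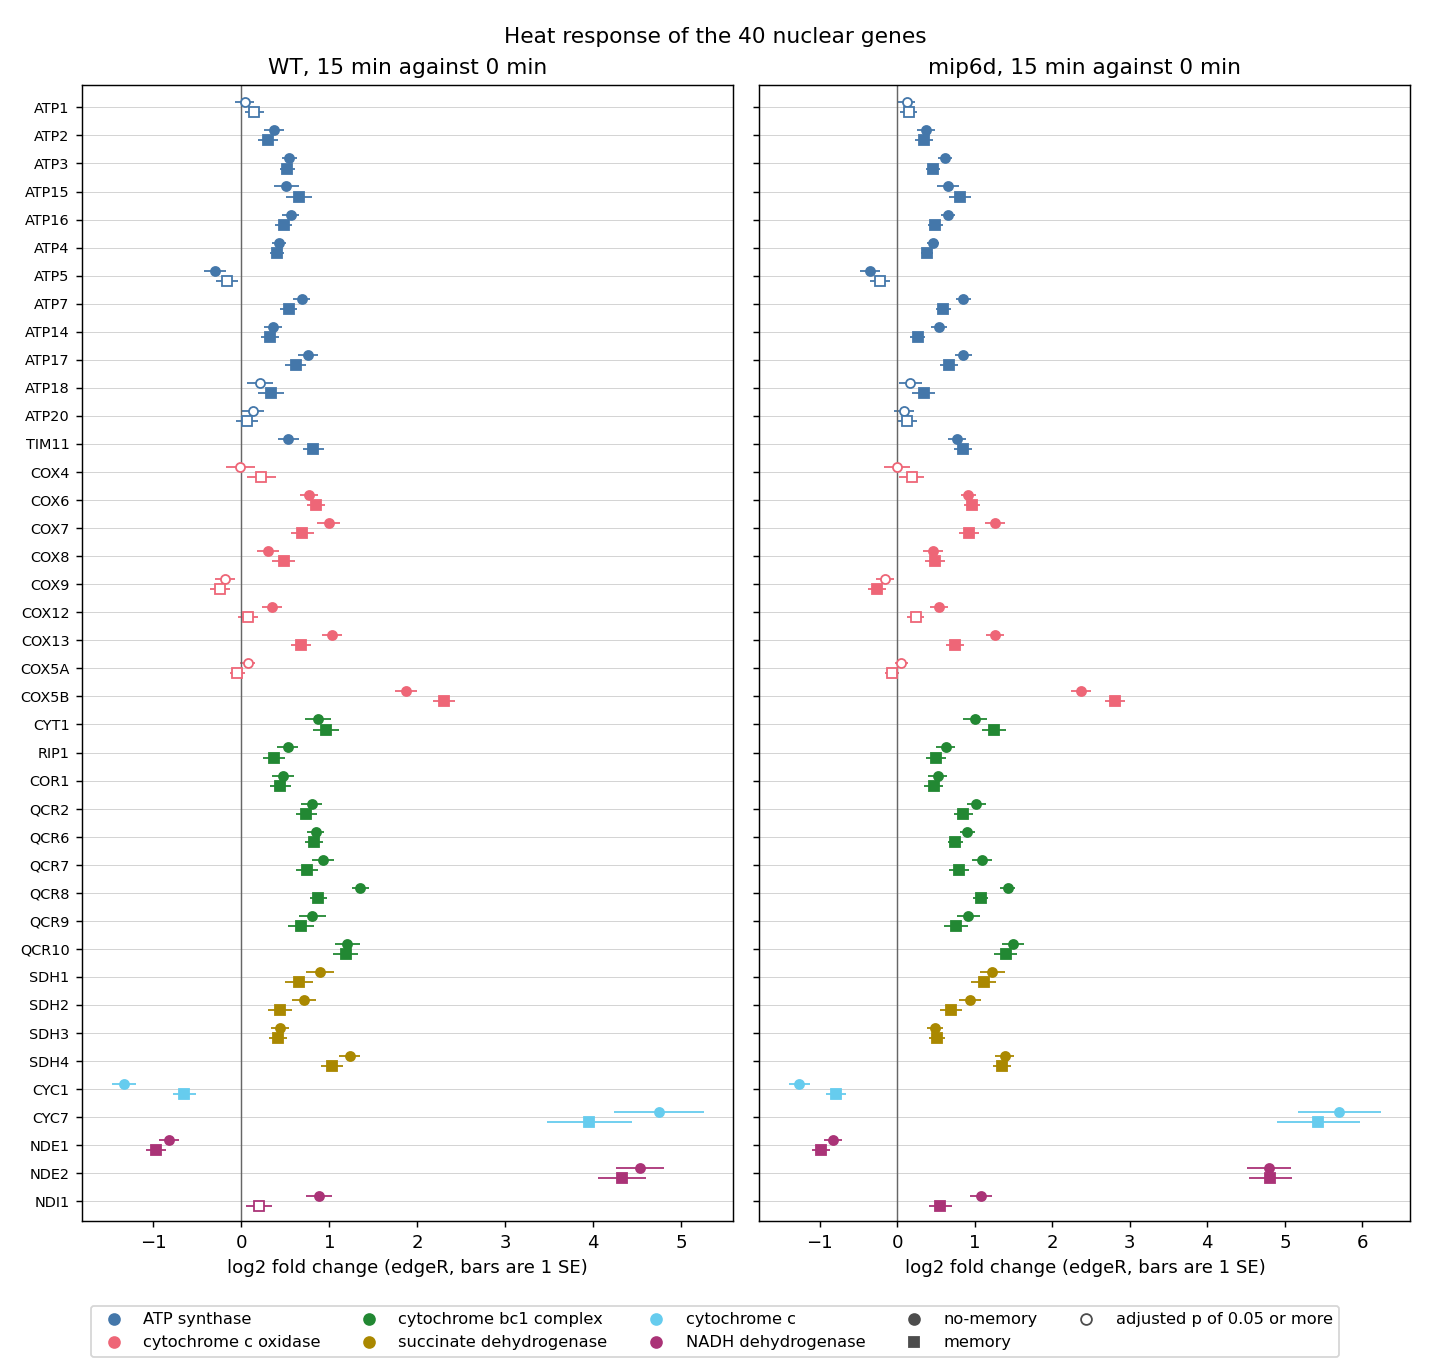
Log2 fold change at 15 min against 0 min of the final heat shock for each of the 40 genes, in WT (left) and mip6d (right), coloured by complex, with bars of 1 standard error, circles for no-memory and squares for memory, and open symbols for an adjusted p of 0.05 or more (edgeR). CYC7 and NDE2 lie far to the right in every series, with 4.75 and 4.53 in WT no-memory cells, and CYC1 and NDE1 lie to the left in all 4 series.

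The plot of log2 fold changes by gene sets the 4 series (2 strains with and without memory) beside each other. At 15 min the counts were 30 genes higher and 2 lower of 40 in WT memory cells (background 32.5% higher and 33.3% lower), 31 and 3 in mip6d no-memory cells (37.6% and 38.0%), and 31 and 3 in mip6d memory cells (34.3% and 35.6%). The medians were 0.50, 0.72 and 0.58. Of the 40 genes, 29 were called higher in all 4 series (27.7% of all genes were), CYC1 and NDE1 were called lower in all 4 (28.2% of all genes were), and ATP1, ATP20, COX4 and COX5A were called in none. Leaving out replicate 2 of every group left 23 genes higher in all 4 (21.1% of all genes). Without the mip6d memory 0 min replicate 2 sample, 29 genes were higher and 2 lower in mip6d memory cells (32.1% and 33.4% of all genes).

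Succinate dehydrogenase, the enzyme shared by the chain and the TCA cycle, rose as a whole. SDH1 (YKL148C), which encodes the flavoprotein subunit, had 108, 97.7 and 148 CPM in the 3 WT no-memory samples at 0 min and 188, 232 and 238 CPM at 15 min. SDH4 (YDR178W), a membrane anchor subunit, had 87.0, 80.5 and 92.7 CPM at 0 min and 178, 223 and 211 CPM at 15 min. In both genes every heated sample was above every sample at 0 min. The log2 fold change was 1.23 ± 0.12 for SDH4 (adjusted p = 4.49e-10), 0.90 ± 0.16 for SDH1, 0.71 ± 0.14 for SDH2, the iron-sulphur subunit, and 0.44 ± 0.10 for SDH3, the other anchor (edgeR).

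All 9 genes of the bc1 complex rose at 15 min, over a range from 0.47 for COR1, a core subunit, to 1.35 for QCR8 (YJL166W), a small subunit. QCR8 had 46.0, 47.2 and 52.6 CPM in WT no-memory samples at 0 min and 116, 128 and 128 CPM at 15 min. This was the clearest separation in the complex, with a log2 fold change of 1.35 ± 0.10 (2.55-fold, adjusted p = 1.49e-12, edgeR). QCR10, another small subunit, came next at 1.21 ± 0.14. The subunits that carry the redox centres gave 0.87 ± 0.15 for CYT1, which encodes cytochrome c1, and 0.53 ± 0.12 for RIP1, which encodes the Rieske iron-sulphur protein.

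Changes in the ATP synthase were smaller. Among the genes of the catalytic head, ATP2 (beta) rose by 0.37 ± 0.12 on the log2 scale (adjusted p = 0.00541, edgeR; 0.30 and not called without replicate 2) while ATP1 (alpha) was at 0.04 ± 0.11 and was not called, and a difference between both genes in their response was not tested. ATP1 had 453, 463 and 609 CPM at 0 min and 487, 523 and 554 CPM at 15 min in WT no-memory samples, so that the groups overlapped. The central stalk genes ATP3, ATP15 and ATP16 lay between 0.51 and 0.56. ATP17, which encodes a subunit of the membrane part, had the highest value of the complex with 0.76 ± 0.11, and TIM11, which encodes the subunit e needed for dimers of the enzyme, gave 0.54 ± 0.12.

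ATP5 (YDR298C), which encodes the peripheral stalk subunit known as OSCP, moved the other way. In WT no-memory samples it had 158, 148 and 187 CPM before heat, 118, 136 and 147 CPM after 15 min and 103, 104 and 123 CPM after 20 min. All samples at 15 and 20 min lay below the lowest sample at 0 min. The log2 fold change was -0.30 ± 0.13 at 15 min (adjusted p = 0.0383) and -0.58 ± 0.13 at 20 min (adjusted p = 2.20e-04, edgeR), and at 20 min ATP5 was lower in all 4 series. The call at 15 min was lost without replicate 1 (-0.24) or replicate 2 (-0.38). The other peripheral stalk genes ATP4, ATP7 and ATP14 rose at 15 min by 0.42, 0.69 and 0.36 on the log2 scale.

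In cytochrome c oxidase, 6 genes rose at 15 min (COX5B, COX13, COX7, COX6, COX12 and COX8, from 1.87 to 0.30 on the log2 scale) and COX4, COX9 and COX5A were not called, with -0.01 ± 0.17, -0.18 ± 0.12 and 0.07 ± 0.08. The call of COX8 was lost without replicate 1 (0.28) or replicate 2 (0.24) and with DESeq2, and that of COX12 without replicate 3 (0.31). At 20 min those 3 genes fell by 0.57, 0.48 and 0.19 on the log2 scale, and the call of COX5A was lost whichever replicate was left out (-0.26 to -0.09). COX9 had 68.7, 66 and 84.2 CPM in WT no-memory samples at 0 min and 52.1, 46.0 and 58.8 CPM at 20 min, with no overlap. COX4 had 76.0, 82.3 and 125 CPM at 0 min and 56.8, 63.7 and 70.1 CPM at 20 min, also without overlap, although the samples at 0 min were far apart. COX13, the gene of subunit VIa, rose from 69.7, 59.2 and 68.1 CPM to 118, 141 and 144 CPM at 15 min.

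The largest changes were in the genes that exist as isoform pairs. CYC7 (YEL039C), the minor isoform of cytochrome c, had 7.73, 5.42 and 5.22 CPM in WT no-memory samples at 0 min. At 15 min it had 148, 177 and 168 CPM and at 20 min 91.8, 159 and 102 CPM. CYC1 (YJR048W), the major isoform in unheated cells, had 34.0, 34.7 and 37.9 CPM at 0 min and 15.8, 13.1 and 13.4 CPM at 15 min. The order of the isoforms was thus the opposite in heated and unheated samples, with no overlap in either gene. The log2 fold change was 4.75 ± 0.51 for CYC7 (26.9-fold, adjusted p = 2.77e-09) and -1.33 ± 0.14 for CYC1 (adjusted p = 1.36e-09, edgeR).

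The external NADH dehydrogenases showed the same opposition. NDE2 (YDL085W) had 1.99, 1.96 and 3.39 CPM in WT no-memory samples at 0 min and 55.0, 49.9 and 64.4 CPM at 15 min, a log2 fold change of 4.53 ± 0.27 (23.1-fold, adjusted p = 4.90e-14). NDE1 (YMR145C) had 498, 423 and 430.4 CPM at 0 min and 246, 264 and 256 CPM at 15 min, a log2 fold change of -0.82 ± 0.12 (adjusted p = 3.48e-07, edgeR). Neither gene overlapped between the times, and NDE1 stayed the more abundant. NDI1 (YML120C), the internal enzyme, rose from 125, 119.9 and 132 CPM to 193, 246 and 258 CPM, by 0.89 ± 0.15 on the log2 scale (adjusted p = 4.32e-06).

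COX5A (YNL052W) and COX5B (YIL111W) encode alternative forms of subunit V of cytochrome c oxidase. COX5B had 46.2, 45.4 and 55.5 CPM in WT no-memory samples at 0 min and 172, 176 and 191 CPM at 15 min. COX5A had 80.6, 80.9 and 99.4 CPM at 0 min and 80.4, 95.1 and 98.7 CPM at 15 min. COX5B thus passed COX5A in every heated sample while the COX5A groups overlapped. The log2 fold change of COX5B was 1.87 ± 0.13 (3.67-fold, adjusted p = 3.47e-13) and that of COX5A was 0.07 ± 0.08 (adjusted p = 0.452, edgeR).

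**Figure D2:**
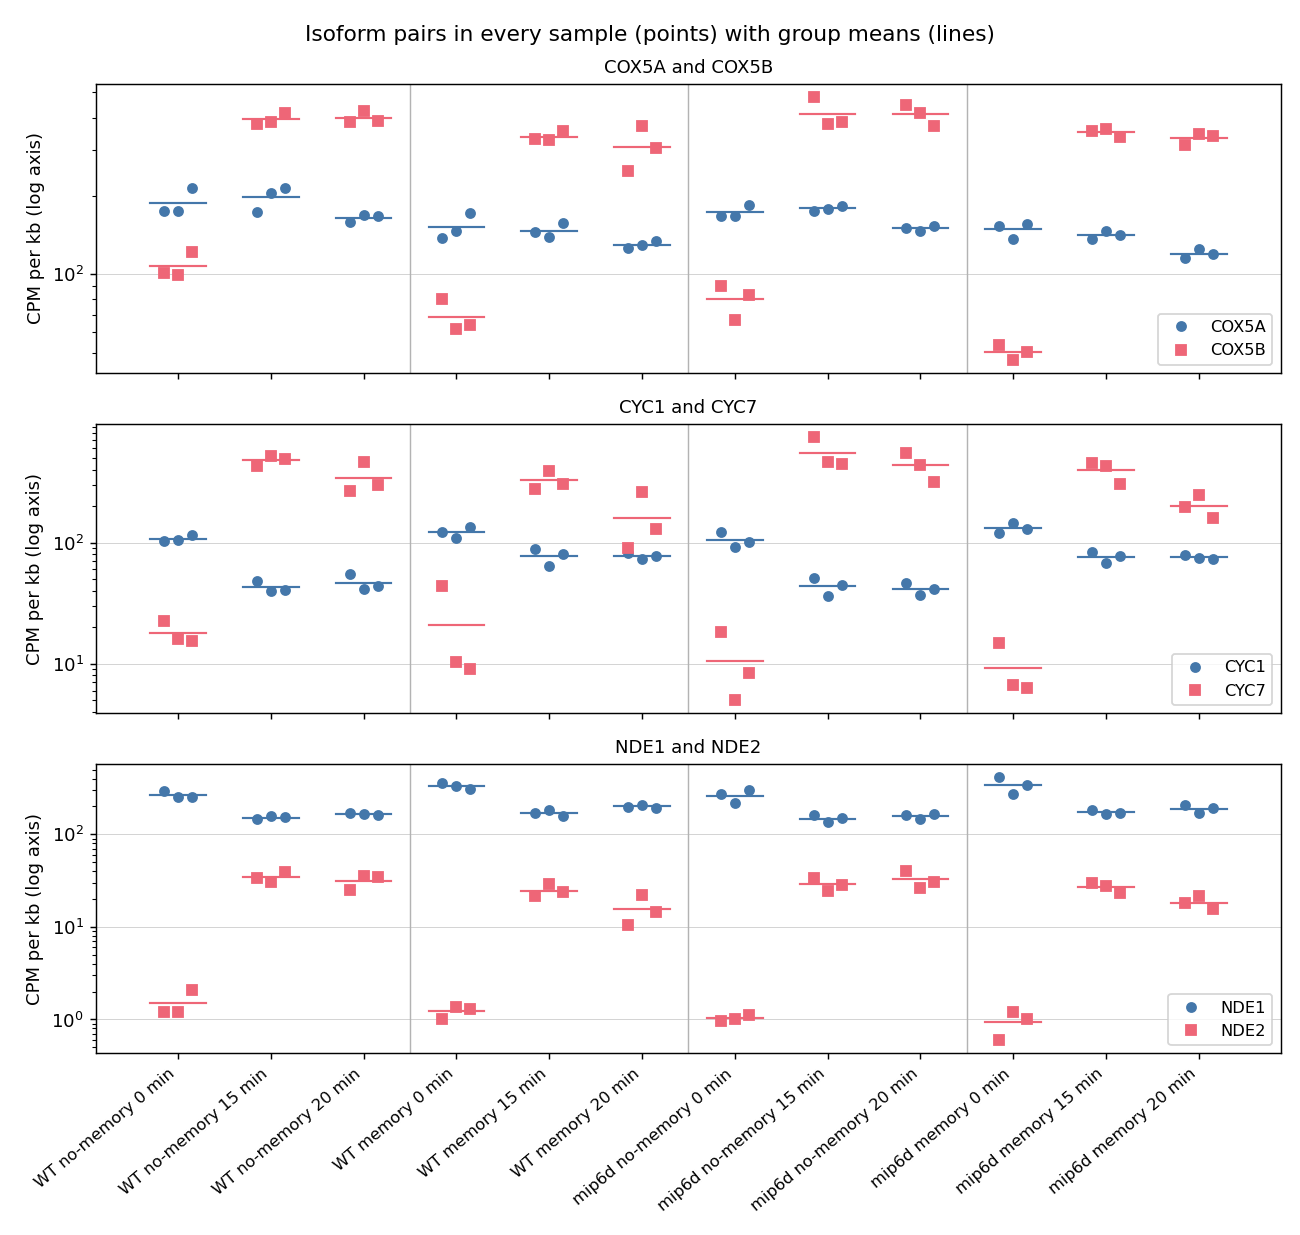
Level in CPM per kilobase of coding length (log axis) of the isoform pairs COX5A and COX5B, CYC1 and CYC7, and NDE1 and NDE2 in the 12 groups, with a point for each sample and a line for each group mean. In WT no-memory cells the lines of COX5B and CYC7 cross those of their partners between 0 and 15 min, while NDE2 stays below NDE1.

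The plot of levels per kilobase shows the pairs on 1 scale. As a share of the pair, CYC7 made up 14.3% ± 3.31 (SD, n = 3) of the cytochrome c transcripts in unheated WT no-memory samples, 91.8% ± 1.53 after 15 min and 87.3% ± 4.40 after 20 min. COX5B made up 36.3% ± 0.319, 66.6% ± 1.65 and 70.7% ± 0.746 of the COX5 pair at the same times, and NDE2 made up 0.562% ± 0.210, 18.5% ± 2.16 and 16.0% ± 2.92 of the NDE pair. The sum of CYC1 and CYC7 was 126 CPM per kilobase at 0 min and 523 at 15 min, that of COX5A and COX5B was 296 and 592, and that of NDE1 and NDE2 was 269 and 186. These sums moved in different directions, as the cytochrome c and subunit V pairs had higher totals at 15 min and the NDE pair had a lower one. Among the genes of a pair, coding sequences were 79.2% (CYC1 and CYC7), 67.4% (COX5A and COX5B) and 65.0% (NDE1 and NDE2) identical over the aligned part, and no member had a copy elsewhere of at least 90% identity.

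The sequence before the start codons was compared because the partners of each pair moved apart. Windows of 500 bases before the start codon were searched on both strands for AGGGG, the core of the stress response element recognised by Msn2 and Msn4, and the element was counted where these letters occurred. It was present in 34.2% of 5764 windows of tested genes and in 47.5% of the 40 windows described here. AGGGG occurred at 3 sites before CYC7, 2 before NDE2 and 2 before COX5B, and at no site in the windows of CYC1, NDE1 and COX5A. Outside the pairs, QCR8 and COX13 rose and held 0 sites, while ATP1, which was not called, held 1 and ATP2 held 2. By complex, AGGGG was in 5 of 13 ATP synthase, 3 of 9 cytochrome c oxidase, 5 of 9 bc1 and 3 of 4 succinate dehydrogenase windows. Whether sites go with the size of the rise was not tested. The lines show these sites for the genes with the largest rises, from RefSeq R64 (the assembly behind sacCer3), written 5′ to 3′ on the strand of the gene, with AGGGG or its reverse complement CCCCT in capitals. A match of letters is a description and not a binding site.
CYC7, minus strand, chrV:80296-80325: cgggttatagcgCCCCTtattgaattattt
CYC7, minus strand, chrV:80236-80265: agtcccccgccgAGGGGtcttttcccacct
CYC7, minus strand, chrV:80152-80181: taagtggccgcaAGGGGcaaagacaaaggc
NDE2, plus strand, chrIV:303053-303082: ggcctCCCCTaataagtcagCCCCTccctt
COX5B, plus strand, chrIX:155040-155069: tggaCCCCTtaaaattactgAGGGGttcag

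All of these sites lay upstream of the coding sequence. For CYC7 they lay 331, 271 and 187 bases before the start codon, for NDE2 the nearer lay 133 bases before it and for COX5B the nearer lay 157 bases before it. TTCNNGAA, a short form of the heat shock element of Hsf1, was present in 21.3% of all 5764 windows and in 17.5% of the 40 windows, and in none of the windows of the 3 isoform pairs. By complex it was in 4 of 9 windows of the bc1 complex and 2 of 4 of succinate dehydrogenase. It was in 1 of 13 of the ATP synthase and 0 of 9 of cytochrome c oxidase. Differences between complexes were not tested.

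The heat response at 20 min was smaller in most genes than at 15 min. In WT no-memory cells 21 genes were higher and 7 lower than at 0 min (background 35.4% and 34.8%), with a median log2 fold change of 0.24. Leaving out replicate 2 of every group reduced the 28 calls to 18, and the share of all genes called from 70.1% to 55.7%. The counts were 16 and 5 in WT memory cells (background 29.8% and 30.4%), 26 and 6 in mip6d no-memory cells (37.1% and 37.0%), and 20 and 5 in mip6d memory cells (32.8% and 33.1%). With samples scaled by their total counts in place of TMM, 26 genes were higher and 3 lower in WT memory cells. That scaling called 36.9% of all genes higher and 22.8% lower.

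At 20 min, 16 genes were called higher in all 4 series, against 24.5% of all genes, and these 16 were also called higher at 15 min in all 4. They were 6 bc1 genes (CYT1, QCR2, QCR6, QCR7, QCR8 and QCR10), 4 genes of cytochrome c oxidase (COX5B, COX6, COX7 and COX13), 3 of the ATP synthase (ATP4, ATP15 and TIM11), and SDH4, CYC7 and NDE2. The genes called lower at 20 min in all 4 series were ATP5, COX5A, COX9, CYC1 and NDE1, 5 of 40 against 24.5% of all genes.

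These lists changed with the replicates and the scaling. Without replicate 2, 9 genes were higher at 20 min in all 4 series (COX5B, CYC7, CYT1, NDE2, QCR6, QCR8, QCR10, SDH4 and TIM11) and 16.9% of all genes were. The number was 15 without replicate 1 (26.0% of all genes), 13 without replicate 3 (20.4%) and 25 with scaling by total counts (31.0%). ATP4 in WT no-memory cells was not called whichever replicate was left out. Of the genes lower in all 4 series, COX9, CYC1 and NDE1 were lower in all 4 in each of these alternatives, ATP5 was so only without replicate 3, and COX5A in none of them.

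When 20 min was tested against 15 min directly in WT no-memory cells, ATP2, ATP7, ATP17 and QCR8 were lower, with log2 differences of -0.46, -0.48, -0.52 and -0.39, where 1.26% of all genes were called. In the other series the test called no member in WT memory and mip6d no-memory cells (edgeR, background 0.136% and 0.205%) and only ATP16 in mip6d memory cells (background 0.170%), while the medians of the 40 genes lay between -0.32 and -0.27 in all 4 series. In WT memory cells 28 of the 40 genes had an unadjusted p under 0.05 in this test. The background of 0.136% is for adjusted calls and does not apply to this count. The share of all genes at that unadjusted threshold is not given here, so the count does not set these genes apart.

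**Figure D3:**
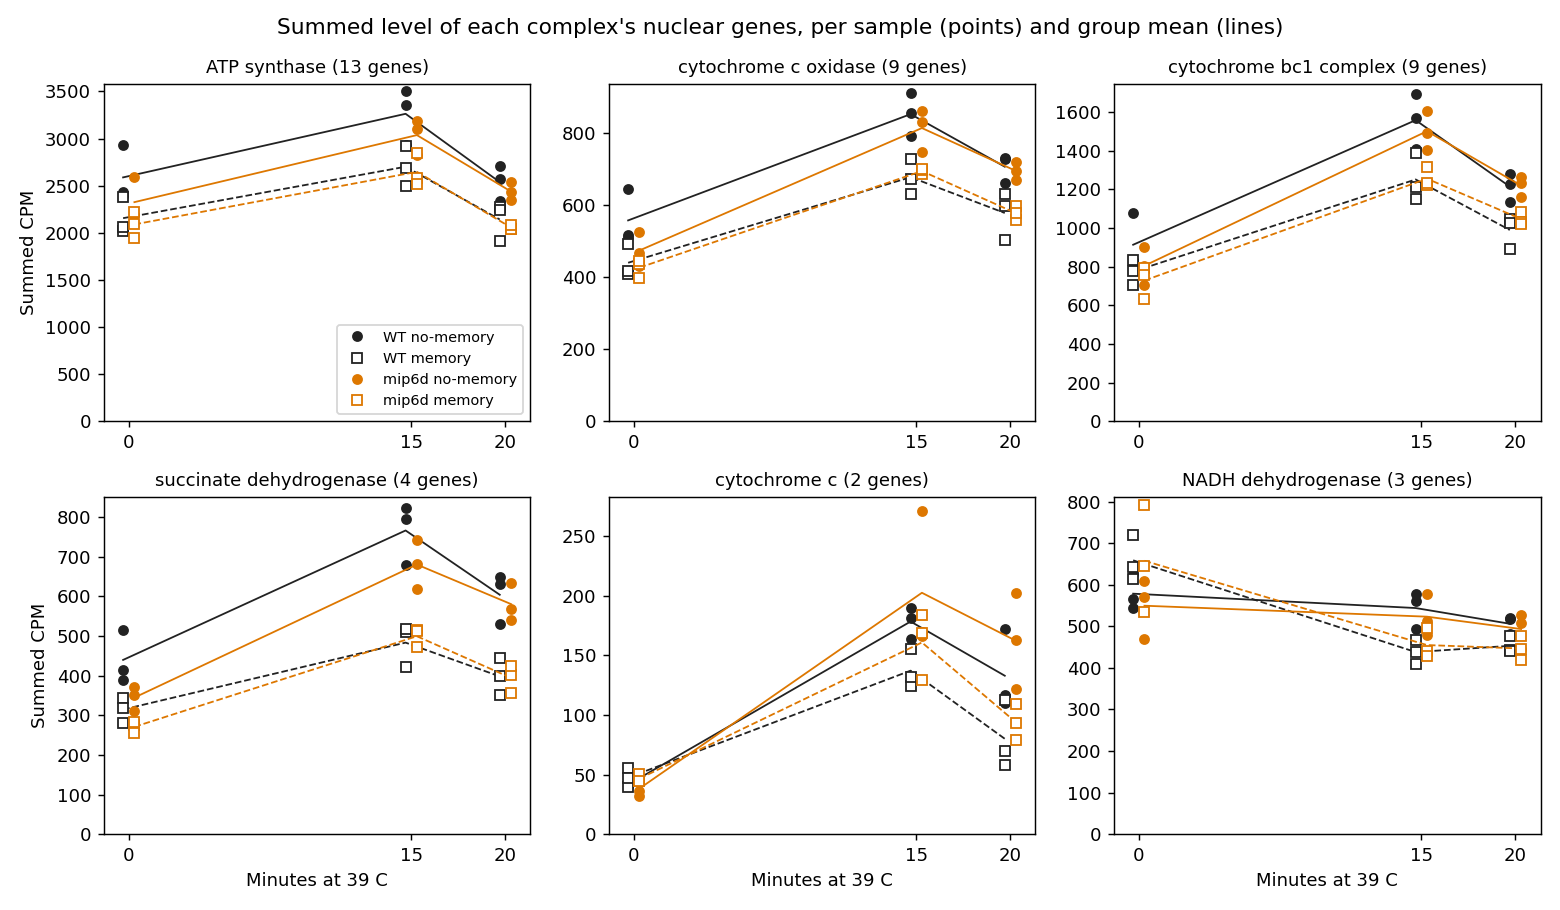
Sum of CPM over the genes of each complex, for each sample, against minutes at 39°C of the final heat shock. The summed level of the bc1 complex in WT no-memory samples averaged 914 before heat, 1559 after 15 min and 1215 after 20 min, and the NADH dehydrogenases did not show this peak.

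The plot of summed levels by complex shows the time course for each complex. Over all 40 genes the sum in WT no-memory samples was 5118 ± 574 CPM (SD, n = 3) at 0 min, 7162 ± 625 at 15 min and 5702 ± 398 at 20 min. The ATP synthase accounted for the largest part, with 2588 ± 298, 3263 ± 295 and 2538 ± 190 CPM. Succinate dehydrogenase had 440 ± 67.2, 766 ± 76.4 and 604 ± 64 CPM, and cytochrome c oxidase had 557 ± 75.5, 852 ± 60.3 and 706 ± 38.9 CPM. The NADH dehydrogenases had 579 ± 41.7, 544 ± 44.4 and 506 ± 21.9 CPM, in which the higher NDE2 and NDI1 levels stand against the lower NDE1 level.

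Genes that work with these complexes were examined as lists. In WT no-memory cells at 15 min, 22 of 32 genes for assembly factors of the complexes rose and none fell (median 0.52), among them SDH6 and SDH5, assembly factors of succinate dehydrogenase, with 2.33 ± 0.16 and 1.76 ± 0.12. Of 11 TCA cycle genes 8 rose and none fell (median 0.59), led by MDH1, malate dehydrogenase, with 1.59 ± 0.13 and CIT1, citrate synthase, with 1.54 ± 0.13. Of 9 genes for ubiquinone synthesis 7 rose and 1 fell, led by COQ4 and COQ6 with 1.63 ± 0.11 and 1.08 ± 0.12. The same test called 36.6% of all genes higher.

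All 3 genes for the inhibitor proteins of the ATP synthase and their stabilising factors rose. STF2 had 36.6, 31.8 and 30.9 CPM at 0 min and 488, 638 and 623 CPM at 15 min in WT no-memory samples, a log2 fold change of 4.14 ± 0.34, and STF1 rose by 2.87 ± 0.16 on the log2 scale. All 3 paralogues of succinate dehydrogenase subunits rose, with 4.56 ± 0.54 for SHH3 and 3.81 ± 0.23 for SDH9, a close relative of SDH1. SDH9 remained the lower of these, with 39.4, 43.7 and 54.0 CPM at 15 min. Of 3 supercomplex factors 2 rose (COX26 by 1.38 ± 0.33 and RCF1 by 0.36 ± 0.09). Of 4 inner membrane carriers 3 fell and none rose, with -1.12 ± 0.14 for AAC3, an isoform of the ADP/ATP carrier, and -0.31 ± 0.11 for MIR1, the phosphate carrier. For these short lists too, the background was 36.6% of all genes higher and 36.6% lower.

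HAP4, which encodes the activating subunit of the HAP complex, fell while most of the 40 genes rose. It had 239, 178 and 155 CPM in unheated WT no-memory samples, 57.0, 51.1 and 58.0 CPM after 15 min and 96.8, 80.3 and 89.0 CPM after 20 min of heat. All heated samples lay below the unheated ones. The log2 fold change at 15 min was -1.78 ± 0.23 (adjusted p = 5.74e-08, edgeR). Of the 8 HAP and haem or oxygen regulators in its list, 3 rose and 4 fell, against 36.6% of all genes higher and 36.6% lower. ROX1, the repressor of hypoxic genes, was at -0.86 ± 0.20.

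CCAAT was searched in the same windows of 500 bases because it is the sequence the HAP complex recognises. It was present in 36 of the 40 windows (90%) and in 62.2% of all 5764 windows, and was not found in those of COX4, CYT1, CYC1 and NDE2. Among windows not printed below, those of SDH3 and of COX5B and CYC7, partners that rose, also held it. The lines give sites of 3 succinate dehydrogenase genes, which moved together, and of COX5A and NDE1, the partners that did not rise, from RefSeq R64, 5′ to 3′ on the strand of the gene, with CCAAT or its reverse complement ATTGG in capitals.
SDH1, minus strand, chrXI:171367-171396: cgggcctcttctATTGGttgtttgtttgct
SDH2, minus strand, chrXII:54071-54100: cggcctcgcATTGGcCCAATtagctccggt
SDH4, plus strand, chrIV:817705-817734: ataagcattgagCCAATcgctgctgttttt
COX5A, plus strand, chrXIV:531543-531572: tgcaaaaatcgtCCAATagacgttttcctc
NDE1, minus strand, chrXIII:556719-556748: aagacaacgctcATTGGcctgttcttgatt

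The second question was how levels in previously heated cultures differed from those in cultures heated for the first time. In WT, 11 of the 40 genes were lower and none higher with memory at 0 min (background 10.3% lower and 5.71% higher), 21 lower and 1 higher at 15 min (20.3% and 22.0%), and 18 lower and 2 higher at 20 min (23.0% and 22.4%). The median differences were -0.28, -0.33 and -0.28 on the log2 scale. In mip6d, 2 genes were lower and 1 higher at 0 min (background 10.3% and 5.49%), 14 lower and 1 higher at 15 min (18.2% and 22.0%), and 19 lower and 1 higher at 20 min (23.0% and 23.5%), with medians of -0.12, -0.21 and -0.26. These tests did not pair the memory and no-memory flasks, which the study split from the same culture. With the replicate number as a block, 21 genes were lower and 1 higher in WT at 0 min (14.8% and 11.3% of all genes with the block) and 10 lower and 2 higher in mip6d at 0 min (15.3% and 11.1%). In WT the block gave 26 lower and 1 higher at 15 min (24.9% and 26.8%) and 21 and 3 at 20 min (27.5% and 26.6%). In mip6d it gave 17 and 1 at 15 min (23.0% and 26.0%) and 23 and 3 at 20 min (27.5% and 28.1%).

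**Figure D4:**
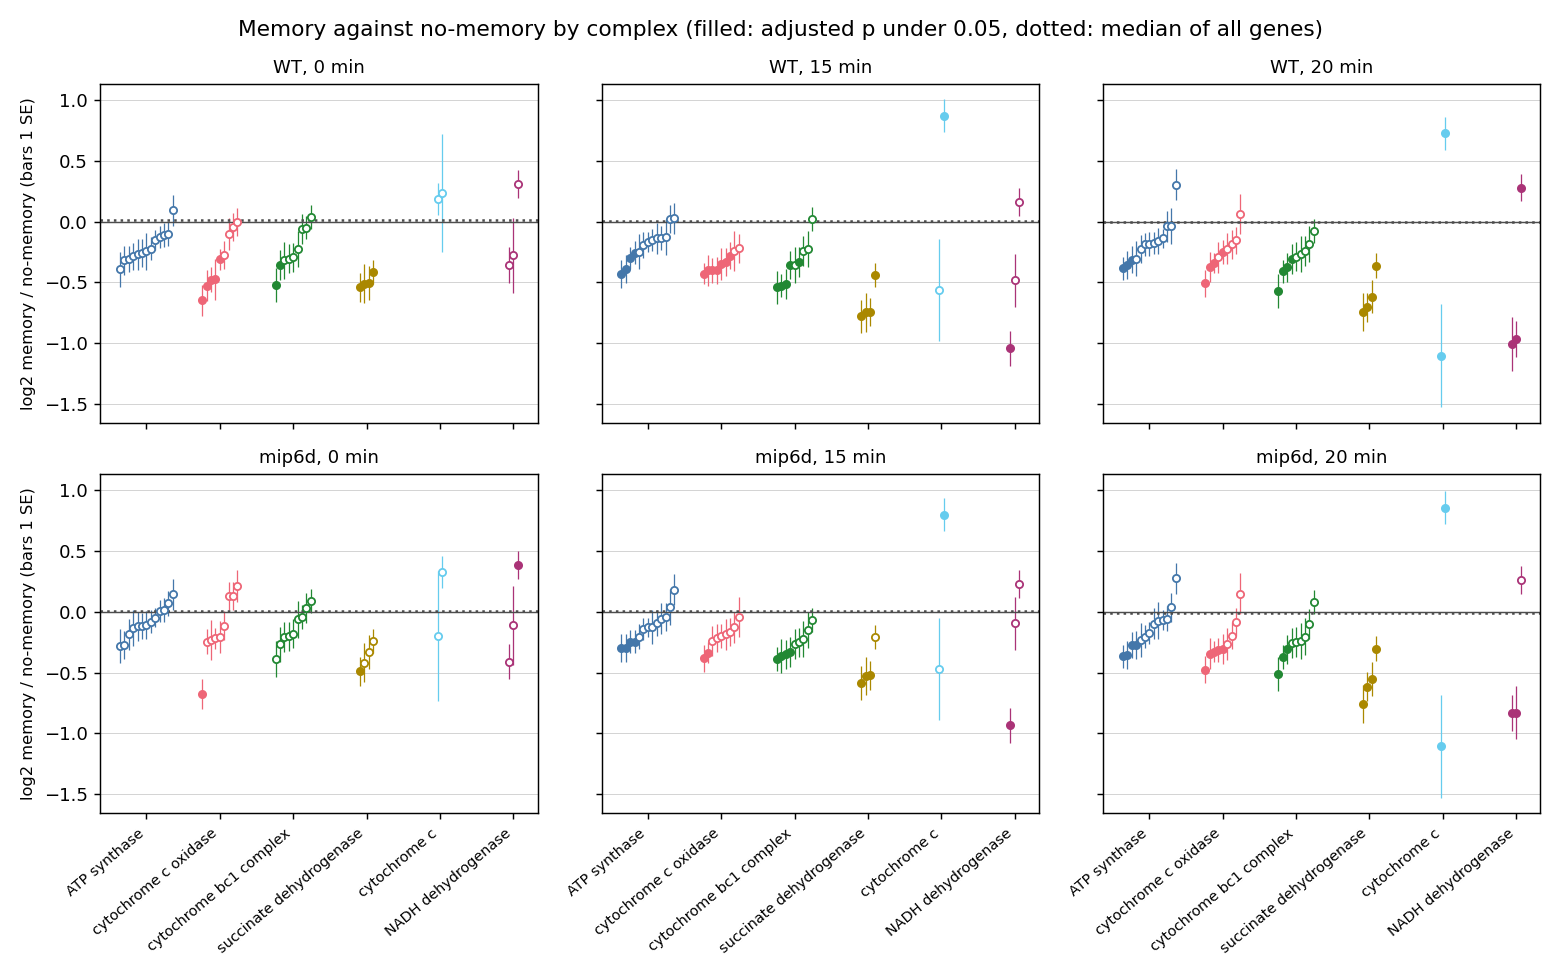
Log2 ratio of memory to no-memory levels of each of the 40 genes, by complex, in WT (top) and mip6d (bottom) at 0, 15 and 20 min, with filled points for an adjusted p under 0.05 (edgeR) and a dotted line for the median of all genes. The points of succinate dehydrogenase lie below the line, with a WT median of -0.75 at 15 min, and CYC1 lies above it at 15 and 20 min.

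These directions are relative to the bulk of genes and depend on the scaling. The TMM factors were 0.866 to 1.03 in no-memory samples and 0.984 to 1.17 in memory samples. When samples were scaled by total counts alone, the median of all genes in the memory comparisons was 0.16 to 0.26 higher than with TMM, the median of the 40 genes was between -0.09 and 0.03, and the 40 genes stayed 0.14 to 0.34 below all genes. With that scaling the genes lower and higher in WT were 5 and 1 (0 min), 5 and 3 (15 min), and 7 and 3 (20 min), and in mip6d 2 and 3, 3 and 3, and 6 and 4. Of the 5867 genes, that scaling called 241 lower and 1644 higher at 0 min, 397 and 2783 at 15 min, and 616 and 2402 at 20 min in WT, and 293 and 1164, 371 and 2526, and 615 and 2437 in mip6d. In the heat responses the corresponding shift of all genes was at most 0.20, and the 40 genes stayed 0.20 to 0.59 above all genes in the 6 comparisons in which it reached 0.10.

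Replicates also moved these counts. Leaving out replicate 2 or replicate 3 of every group left 2 calls of 11 in WT at 0 min, where the share of all genes called went from 16.0% to 2.52% and 1.65%. Leaving out replicate 2 left 13 calls of 22 at 15 min (25.7% of all genes, 42.3% with all samples). Leaving out replicate 3 left 12 of 20 at 20 min (26.4% of all genes, 45.4% with all samples). In mip6d the 15 calls at 15 min became 8, 9 and 8 without replicates 1, 2 and 3, where 36.5%, 23.5% and 26.2% of all genes were called (40.1% with all samples). The 20 calls at 20 min became 13 without replicate 2 and 10 without replicate 3, where 33.5% and 30.8% of all genes were called (46.4% with all samples). At 0 min the 3 calls in mip6d became 5, 1 and 1, and they were 3 without the sample with disagreeing labels. The shares of all genes were then 19.8%, 3.61%, 4.01% and 12.7% (15.8% with all samples).

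The plot of memory to no-memory ratios shows succinate dehydrogenase with the lowest median of the complexes at 0 and 15 min in both strains, while at 20 min the NADH dehydrogenases had a lower median (-0.97 against -0.66 in WT). The 4 succinate dehydrogenase genes were each called lower in WT at 0, 15 and 20 min, with medians of -0.51, -0.75 and -0.66. At 0 min none of the 4 was called without replicate 3, only SDH4 was called without replicate 2, and with scaling by total counts SDH1 (-0.32) and SDH2 (-0.32) were not called. SDH1 had 188, 232 and 238 CPM in WT no-memory samples at 15 min and 117, 140.3 and 134 CPM in memory samples. SDH2 had 128, 141 and 149 CPM without memory and 68.2, 79.4 and 96.4 CPM with memory, and SDH4 had 178, 223 and 211 CPM and 104, 138 and 123 CPM. In none of the 3 genes did the groups overlap.

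The differences at 15 min in WT were -0.75 ± 0.16 for SDH1 (adjusted p = 4.13e-04), -0.78 ± 0.14 for SDH2 (adjusted p = 5.77e-05), -0.74 ± 0.12 for SDH4 (adjusted p = 1.48e-05) and -0.44 ± 0.10 for SDH3 (adjusted p = 8.78e-04, edgeR). With scaling by total counts, SDH1, SDH2 and SDH4 were still called lower in WT at 15 and 20 min, at -0.49, -0.53 and -0.49 at 15 min, while SDH3 was at -0.19 and was not called. In mip6d at 15 min the TMM values were -0.53 ± 0.16 for SDH1, -0.58 ± 0.14 for SDH2 and -0.52 ± 0.12 for SDH4, and SDH3 was at -0.21 ± 0.10 and was not called. There SDH1 was not called without replicate 3 (-0.52) or with scaling by total counts (-0.31), with which SDH2 (-0.36) and SDH4 (-0.30) were called and SDH3 was at 0.01. The summed level of succinate dehydrogenase in WT at 15 min was 766 ± 76.4 CPM (SD, n = 3) without and 483 ± 53.0 with memory.

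NDI1 had the largest negative difference at 15 min in WT. It had 193, 246 and 258 CPM in no-memory samples and 88.4, 117 and 133 CPM in memory samples, without overlap. The difference was -1.04 ± 0.15 (adjusted p = 3.03e-06) at 15 min and -0.97 ± 0.15 at 20 min (adjusted p = 1.09e-05), and in mip6d -0.93 ± 0.15 and -0.83 ± 0.15 (edgeR). NDI1 was also called lower with scaling by total counts, at -0.79 and -0.76 in WT and -0.71 and -0.63 in mip6d. At 0 min it had 125, 119.9 and 132 CPM without memory and 122, 86.6 and 85.3 CPM with it, where the groups overlapped, although memory was the lower in each same-numbered pair. The difference at 0 min was -0.36 ± 0.15 (adjusted p = 0.0947, edgeR), and DESeq2 and limma called it.

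CYC1 moved against the rest. It had 15.8, 13.1 and 13.4 CPM in WT no-memory samples at 15 min and 29.3, 21.3 and 26.7 CPM in memory samples, and all memory samples were above all no-memory samples. The difference was 0.87 ± 0.14 at 15 min (adjusted p = 1.17e-05) and 0.73 ± 0.14 at 20 min in WT, and 0.80 ± 0.14 and 0.86 ± 0.14 in mip6d (edgeR). CYC1 was the only one of the 40 genes called higher at both times in both strains with TMM scaling, against 16.3% of all genes. NDE1 was higher with memory in WT at 20 min (0.28 ± 0.11, adjusted p = 0.0470) and in mip6d at 0 min (0.38 ± 0.11, adjusted p = 0.0215, edgeR). Neither NDE1 call held when any replicate was left out, with values of 0.25 to 0.31 in WT and 0.25 to 0.48 in mip6d. With scaling by total counts, which raised the median of all genes, NDE1 was called higher in all 6 comparisons, at 0.42 to 0.54.

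The isoforms that rose with heat were lower with memory at 20 min. CYC7 had 91.8, 159 and 102 CPM in WT no-memory samples at 20 min and 30.7, 88.9 and 44.1 CPM in memory samples, where replicate 2 was the highest in both groups. NDE2 had 40.7, 57.5 and 56.8 CPM without memory and 17.1, 36.3 and 23.5 CPM with it. No memory sample reached the lowest no-memory sample in either gene. The differences were -1.11 ± 0.43 for CYC7 (adjusted p = 0.0351) and -1.01 ± 0.22 for NDE2 (adjusted p = 6.18e-04, edgeR), and that of CYC7 was not called with DESeq2, with scaling by total counts, or without replicate 2 (-1.38) or replicate 3 (-1.07). At 15 min CYC7 was at -0.56 ± 0.42 (adjusted p = 0.291) and NDE2 at -0.49 ± 0.22 (adjusted p = 0.0729).

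**Figure D5:**
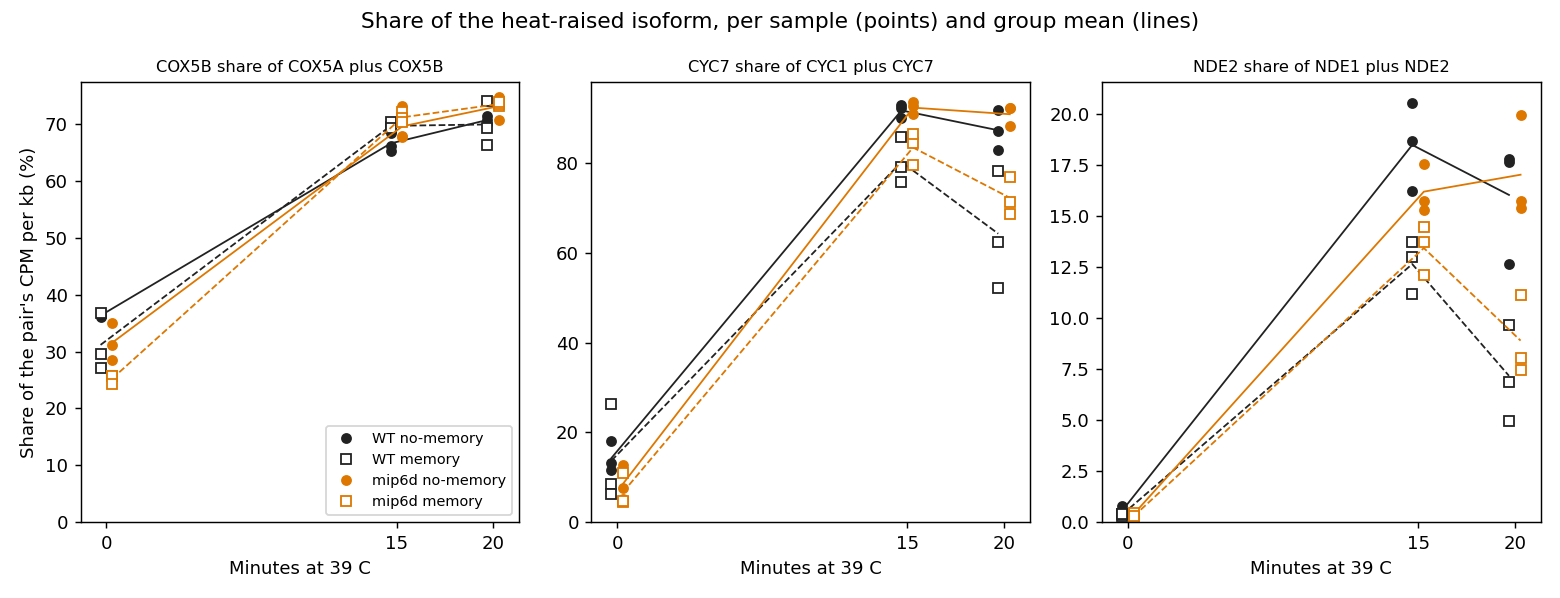
Share in percent of the heat-raised isoform in its pair, from CPM per kilobase, against minutes at 39°C of the final heat shock, with black points for WT, orange for mip6d, filled for no-memory and open for memory. The CYC7 share at 20 min was 87.3% without and 64.3% with memory in WT, and the COX5B share was 70.7% and 69.9%.

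The plot of isoform shares separates the pairs. In WT memory samples the CYC7 share was 13.7% ± 11 (SD, n = 3) at 0 min, 80.3% ± 5.13 at 15 min and 64.3% ± 13.0 at 20 min. The spread at 20 min was wide, from 52.3 to 78.2%, and its highest sample was below the lowest no-memory sample, at 83.0%. In mip6d the CYC7 share at 20 min was 90.9% ± 2.24 without and 72.3% ± 4.28 with memory. The NDE2 share at 20 min was 16.0% ± 2.92 and 7.18% ± 2.35 in WT, while the COX5B share was 70.7% ± 0.746 and 69.9% ± 3.88, where the samples overlapped.

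COX5B differed before the final heat shock. It had 46.2, 45.4 and 55.5 CPM in WT no-memory samples at 0 min and 36.5, 28.1 and 29.1 CPM in memory samples, without overlap. The difference was -0.65 ± 0.12 in WT (adjusted p = 8.95e-04) and -0.68 ± 0.13 in mip6d (adjusted p = 4.51e-04, edgeR). With scaling by total counts it was -0.46 and -0.52 and was still called. Without replicate 3 the WT difference was -0.52 and was not called. COX5B was the gene with the largest negative difference at 0 min in both strains.

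In the other complexes the differences were smaller. At 15 min in WT the genes called lower were 7 of 9 in cytochrome c oxidase, 5 of 9 in the bc1 complex and 4 of 13 in the ATP synthase, with medians of -0.35, -0.36 and -0.17. QCR8 had 116, 128 and 128 CPM without and 80.8, 86.2 and 91.4 CPM with memory, a difference of -0.53 ± 0.10 (adjusted p = 8.68e-05, edgeR) with no overlap, and -0.27 and still called with scaling by total counts. The genes called lower at 15 and 20 min in both strains were ATP2, ATP16, ATP17, COX5A, COX13, NDI1, QCR2, QCR8, QCR10, SDH1, SDH2 and SDH4, 12 of 40 against 13.6% of all genes. The number was 7 without replicate 1 (12.5% of all genes), 5 without replicate 2 (6.51%) and 5 without replicate 3 (6.10%), and NDI1, QCR8, SDH2 and SDH4 were in each of these lists. With scaling by total counts it was 3 (NDI1, SDH2 and SDH4), against 270 of the 5867 genes.

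Partner genes were compared in the same way. In WT at 0 min, where 10.3% of all genes were lower, 5 of 11 TCA cycle genes, 4 of 9 ubiquinone genes and 2 of 3 inhibitor genes were lower and none was higher, with -0.44 ± 0.13 for MDH1 and -0.54 ± 0.11 for COQ4. Of 32 assembly factor genes 4 were lower, a share near that of all genes, with -0.66 ± 0.17 for SDH6. In mip6d at 0 min 3 TCA cycle genes were lower and 1 higher, 4 assembly factor genes were lower and 2 higher, and 3 ubiquinone genes and 1 inhibitor gene were lower. Over all genes the 939 calls in WT at 0 min became 148 without replicate 2 and 97 without replicate 3. HAP4 differed in the other direction, with 239, 178 and 155 CPM in no-memory and 489, 329 and 236 CPM in memory samples at 0 min. Its groups overlapped, as the lowest memory sample was below the highest no-memory sample, and the difference was 0.88 ± 0.22 (adjusted p = 0.00711, edgeR). At 15 and 20 min HAP4 was at 0.35 ± 0.22 and 0.09 ± 0.22 and was not called.

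The third question was whether the change from 0 min itself differed with memory, tested as the difference between the heat responses. In WT at 15 min 3 of 40 genes were called (background 11.3%). The response of NDI1 was smaller with memory (-0.69 ± 0.21, adjusted p = 0.0294), being 0.89 ± 0.15 without and 0.20 ± 0.15 with memory, and so was that of QCR8 (-0.48 ± 0.14, adjusted p = 0.0234), being 1.35 and 0.88. The fall of CYC1 was smaller with memory (0.69 ± 0.19, adjusted p = 0.0178, edgeR), being -1.33 and -0.65. None of the 3 was called without replicate 2 or without replicate 3, where NDI1 was at -0.72 and -0.87, QCR8 at -0.45 and -0.56, and CYC1 at 0.70 and 0.66. Without those replicates, 2.90% and 5.93% of all genes were called. QCR8 was also not called without replicate 1 (-0.42) or with scaling by total counts. SDH1, SDH2 and SDH4, which had large differences in level, gave -0.24 ± 0.22, -0.28 ± 0.20 and -0.20 ± 0.17 and were not called.

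At 20 min in WT no gene was called by edgeR (background 10.2%), with 6 at an unadjusted p under 0.05, while DESeq2 called COX13, CYC1 and NDI1 (13.3% of all genes), and limma on the authors' normalised counts called these and ATP5 and COX4 (21.8%). The unadjusted count of 6 has no share of all genes beside it and does not set these genes apart. With the replicate number as a block 5 of 40 were called and 19.5% of all genes. In mip6d, COX13 was called at 15 min (background 10.3%), and COX13 and COX7 at 20 min (background 14.0%). COX13 had 63.7, 50.1 and 55.0 CPM at 0 min and 147, 127 and 130.4 CPM at 15 min in mip6d no-memory samples, and 65.2, 58.5 and 61.3 CPM and 102, 106 and 102 CPM in memory samples. It thus started slightly higher and ended lower with memory, a difference between responses of -0.51 ± 0.16 at 15 min (adjusted p = 0.0376) and -0.61 ± 0.16 at 20 min (adjusted p = 0.0115, edgeR). COX7 gave -0.56 ± 0.19 at 20 min (adjusted p = 0.0435). With the block 5 of 40 genes and 23.8% of all genes were called in mip6d at 20 min, and without replicate 2 or replicate 3 neither gene was called at either time, with COX13 at -0.53 and -0.53 at 15 min and -0.62 and -0.61 at 20 min and COX7 at -0.51 and -0.67. Without replicate 2 and without replicate 3, 3.09% and 4.33% of all genes were called at 15 min and 4.23% and 5.49% at 20 min. COX7 was also not called without replicate 1 (-0.49). Without the mip6d memory 0 min replicate 2 sample, 2 genes were called at 15 min and 4 at 20 min (8.93% and 11.4% of all genes).

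The last question was whether the loss of Mip6 changed these genes. Averaged over the 6 combinations of condition and time, none of the 40 genes was called as different between mip6d and WT (edgeR, background 1.12%). Their log2 differences lay between -0.15 and 0.12, with standard errors between 0.03 and 0.18 and a lowest adjusted p of 0.145 (edgeR). Of these genes 9 had an unadjusted p under 0.05, for which the share of all genes is not given here. DESeq2 called 0 (2.59% of all genes), and limma on the authors' normalised counts, which called 9.09% of all genes, called 8 (ATP2, ATP5, COX9, COX5A, RIP1, QCR6, SDH3 and SDH4). With the replicate number as a block, edgeR called 5 of the 40 genes lower and 0 higher in mip6d (6.85% of all genes). Without replicate 1 it called 3 lower and 0 higher (1.23%). With all samples and no block, the largest difference was that of SDH4, at -0.15 ± 0.05, and QCR6 was at 0.12 ± 0.04.

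The heat response averaged over conditions and times also gave no call between strains among the 40 genes with edgeR (background 0.0852%), with 7 genes at an unadjusted p under 0.05. For these 7 too, the share of all genes at that threshold is not given. COX5B came nearest, with a heat response larger in mip6d by 0.51 ± 0.11 (adjusted p = 0.0597), and was called by DESeq2 and by limma. In no-memory samples at 15 min COX5B had 172, 176 and 191 CPM in WT and 219, 172 and 176 CPM in mip6d, where the samples overlapped, and at 0 min it had 46.2, 45.4 and 55.5 CPM and 41.1, 30.5 and 38.0 CPM, where they did not. CYC7 gave 1.26 ± 0.42 (adjusted p = 0.247) with 254, 158 and 152 CPM in mip6d at 15 min, replicate 1 being far above the others. The effect of memory at 0 min was not called as different between strains for any of the 40 genes, nor for any of all genes tested (0%), with edgeR, DESeq2 or limma, and none of the 40 had an unadjusted p under 0.05 with edgeR. The strain difference in this effect was positive in 36 of the 40 genes, with a median of 0.13 against -0.01 over all genes. The 40 values come from the same samples and are not independent of each other, and whether the set differed was not tested.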

How the data were processed

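Poly(A)-selected stranded libraries (TruSeq) were, per the labels and the study's methods, checked with FastQC, trimmed with Trimmomatic, mapped with HISAT2 to sacCer3 and counted per gene after StringTie (versions not given in the sources used here). The read counts deposited by the authors were used for all main results. The deposited normalised signal, made by the authors with TMM, a low-count filter and ARSyN, served only for an alternative with limma (log2 of the value + 1).

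Read counts were analysed in R 4.3.3 with edgeR 4.0.16 (TMM, glmQLFit with robust dispersion, 12 group means, 24 residual degrees of freedom), keeping genes over 1 CPM in at least 3 samples. Standard errors were computed from the fold change and its F statistic. Alternatives used limma 3.58.1, DESeq2 1.42.0, RLE or total-count scaling, no filter, a replicate block, and each replicate left out. The script was tested on simulated data. Every one of the 40 genes could be named, along with HAP4 and up to 2 of the largest called changes per partner list. The members and lists were chosen with earlier results of these data known.

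The labels number replicates 1 to 3. The study describes a culture split into a memory and a no-memory flask, which pairs these conditions by design. That samples with the same number came from the same culture is not stated in the labels. The main tests used no pairing, and the replicate block served as an alternative. Of 42 same-number pairs across the compared groups, 33 had correlated deviations over 0.1 (median 0.442, range -0.194 to 0.788), and for memory against no-memory all 3 pairs did so except in mip6d at 15 min. Replicates are stated to be biological. Mitochondrially encoded subunits were not tested. Sequences came from RefSeq R64.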

Additional observations from a re-analysis of the deposited data

Results flagged for a closer look

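Among the 40 genes, 6 differences between the heat responses with and without memory passed the edgeR test of the difference itself. At 15 min in WT these were QCR8 (-0.48 on the log2 scale), CYC1 (0.69) and NDI1 (-0.69), where 11.3% of all genes were called. At 20 min in WT there was none, against 10.2% of all genes. In mip6d they were COX13 at 15 min (-0.51) and COX7 (-0.56) and COX13 (-0.61) at 20 min, against 10.3% and 14.0% of all genes. None of the 6 was called without replicate 2 or without replicate 3. The shares of all genes called then fell to 2.90% and 5.93% in WT at 15 min. In mip6d they fell to 3.09% and 4.33% at 15 min and to 4.23% and 5.49% at 20 min. The differences of CYC1, NDI1 and COX13 were also in the same direction in the other strain at the same time, at 0.47, -0.52 and, in WT, -0.36 and -0.46, none of which passed the test, and a difference between strains in this effect was not tested.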

How the results depend on the processing

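Most single-gene results kept their side of the threshold and, where called, their direction, 7828 of 8400 over 10 alternatives, with 299 losing and 272 gaining a call. Results called in neither fit count among the 7828 whatever their direction, which was not compared. Among results called in either fit, the 1 reversal was ATP7 in memory against no-memory WT at 15 min. It went to 0.0005303 with scaling by total counts. Leaving out each replicate in turn gave 31 to 34 calls (34 with all) in WT no-memory at 15 min, 18 to 29 (28) at 20 min, 27 to 32 (32) and 14 to 21 (21) in WT memory, 32 to 34 (34) and 27 to 32 (32) in mip6d no-memory, and 28 to 35 (34) and 18 to 26 (25) in mip6d memory. For memory against no-memory at 0, 15 and 20 min it gave 2 to 11 (11), 13 to 23 (22) and 12 to 21 (20) in WT and 1 to 5 (3), 8 to 15 (15) and 10 to 21 (20) in mip6d. For the difference between the heat responses with and without memory it gave 0 to 3 (3) and 0 to 4 (0) in WT and 0 to 2 (1) and 0 to 4 (2) in mip6d at 15 and 20 min. The shares of all genes were 2.90 to 10.8% (11.3%) and 1.89 to 9.63% (10.2%) in WT. In mip6d they were 3.09 to 8.93% (10.3%) and 4.23 to 11.4% (14.0%). For the strain mean it gave 0 to 3 (0), with 0.273 to 1.24% of all genes (1.12%).

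Limma on the authors' normalised counts called 23 and 14 genes for memory at 0 min in WT and mip6d, against 27.7% and 27.6% of all genes. For the memory effect on the response it called 5 in WT at 20 min (21.8%) and 2 and 4 in mip6d at 15 and 20 min (22.4% and 26.5%). It called 8 for the strain mean (9.09%) and 1 for the strain effect on the response (1.05%). DESeq2 called 18 and 8 for memory at 0 min (18.9% and 19.0% of all genes) and 3 in WT at 20 min for the memory effect (13.3%). It called 1 for the strain effect on the response (0.903%), as did RLE scaling (1, 0.102%), total counts (1, 0.290%) and no filter (1, 0.109%). Scaling by total counts gave 6, 8 and 10 calls for memory in WT (32.1%, 54.2% and 51.4% of all genes) and 5, 6 and 10 in mip6d (24.8%, 49.4% and 52.0%). It gave 0 and 1 for the memory effect in mip6d (11.9% and 14.8%). Without the mip6d memory 0 min replicate 2 sample, the memory effect in mip6d gave 2 and 4 calls at 15 and 20 min (8.93% and 11.4% of all genes).

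With the replicate number as a block, 22 and 12 genes were called for memory at 0 min in WT and mip6d (26.1% and 26.3% of all genes). The memory effect gave 5 in WT at 20 min (19.5%) and 2 and 5 in mip6d at 15 and 20 min (20.0% and 23.8%). The strain mean gave 5, all lower in mip6d (6.85%). Over all single-gene results the block added 69 calls of 840 and removed 0. Of 36 samples, 33 correlated best with samples of their own number. The causes of these changes were not tested. Depth was lowest for NDE2 and CYC7, whose counts at 0 min were as low as 29 and 44 in a sample.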
